A study of Mus musculus with 2 samples.

Results

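Genes of the microtubule system were examined for peaks of an antibody against Rac1 in the mouse retina. They were chosen by name. Motor genes were those whose symbol marks a kinesin, a kinesin light chain, a Dync dynein subunit or a Dctn dynactin subunit. The others were tubulin and gamma-tubulin complex genes, and stathmin, Map, Mapt, Camsap, Clasp, Mapre and Dpysl genes. In all, 22 such genes carried a peak, 10 in the list of the hypertensive retina and 19 in that of the control retina, and 7 were in both. Each had 1 peak per list, so these were 10 of the 1711 peaks in the hypertensive retina and 19 of the 3078 in the control retina. Peaks were found by CUT&Tag, in which an antibody on chromatin tethers a transposase that inserts sequencing adapters nearby. The hypertensive group, COH, was retina of wild type C57BL/6 mice, 7 weeks old, with chronic ocular hypertension of 1 week, which is raised pressure in the eye and a model of glaucoma. The control group was retina of wild type C57BL/6 mice of the same age with no treatment. There was 1 library per group. No difference between the retinas was therefore tested, and intervals are exact (Clopper-Pearson) 95% binomial intervals that cover counting error only. How many animals gave each library, and how the pressure was raised, is not given in the sources used here. In a bulk library, fewer cells of a type and less signal per cell cannot be told apart.

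Microtubules are hollow polymers of alpha- and beta-tubulin along which the long axons of retinal ganglion cells are supplied. Kinesins mostly carry cargo outward to the plus ends, and cytoplasmic dynein, with its activator dynactin, carries it back toward the cell body. Stathmins bind free tubulin, Map proteins lie along the lattice, and Camsap and Mapre proteins hold the minus and plus ends. Some kinesins do not carry cargo: Kif2a, a gene in the series title, removes tubulin from microtubule ends. Rac1 is a small GTPase of the cytoskeleton, and the stated purpose of the experiment was to search for genes related to it. A peak here marks where the antibody gave enriched reads near a gene; it is not a measure of the gene's RNA or protein.

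Promoters of 3 members are shown first, because Kif2a had a peak at its promoter in control alone, Camsap1 at its promoter in both retinas, and Klc4 at its promoter in COH alone. Each is the RefSeq window of GRCm38.p6 with 250 bases before and 50 after a transcription start, 5′ to 3′ on the strand of the gene, which is the minus strand for all 3. The windows are chr13:107022306-107022605 for Kif2a, chr2:25983233-25983532 for Camsap1 and chr17:46646031-46646330 for Klc4. The table holds 2 windows for Kif2a, and the one at the 5′ end of the gene is given. Capitals mark the GC box, GGGCGG, searched on both strands, where matches may overlap.

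Kif2a: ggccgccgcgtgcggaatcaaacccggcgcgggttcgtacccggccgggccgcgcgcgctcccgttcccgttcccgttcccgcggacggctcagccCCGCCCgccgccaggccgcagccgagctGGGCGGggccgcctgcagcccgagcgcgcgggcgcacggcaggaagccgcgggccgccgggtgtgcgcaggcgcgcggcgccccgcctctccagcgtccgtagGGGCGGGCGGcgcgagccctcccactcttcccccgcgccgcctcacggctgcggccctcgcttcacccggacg

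Camsap1: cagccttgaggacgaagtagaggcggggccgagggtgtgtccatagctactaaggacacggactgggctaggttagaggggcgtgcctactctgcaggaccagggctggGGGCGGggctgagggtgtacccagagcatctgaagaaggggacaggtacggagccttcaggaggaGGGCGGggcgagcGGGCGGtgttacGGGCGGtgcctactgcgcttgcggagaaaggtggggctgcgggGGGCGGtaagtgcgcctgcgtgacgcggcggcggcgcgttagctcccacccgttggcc

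Klc4: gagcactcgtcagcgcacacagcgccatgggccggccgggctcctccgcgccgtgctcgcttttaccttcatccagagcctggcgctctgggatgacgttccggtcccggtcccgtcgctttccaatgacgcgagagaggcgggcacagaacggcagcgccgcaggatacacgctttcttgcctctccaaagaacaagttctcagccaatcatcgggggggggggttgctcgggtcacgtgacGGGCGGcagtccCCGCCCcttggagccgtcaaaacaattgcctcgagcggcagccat

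All 3 windows were rich in G and C. The Kif2a window was 81.7% G and C with 57 CG steps, and 99.3% of the 17491 promoter windows of protein-coding genes had a lower G and C content. The Camsap1 window was 68.0% G and C and the Klc4 window 65.0%. These 2 were near the median for all genes with a peak within 1000 bp of a transcription start, 66.7% in COH and 66.0% in control. The GC box occurred 4 times in the Kif2a window, 5 times in that of Camsap1 and 2 times in that of Klc4, and 46.3% of all windows held it at least once. Among genes with a peak that close to a transcription start, 81.0% in COH and 79.1% in control held it. Klc4 also held 2 CCAAT boxes (CCAAT), 1 E-box (CACGTG) and 5 copies of TGACG, of which 1 overlaps the E-box and a GC box and 1 a CCAAT box, where 39.2%, 7.91% and 23.8% of all windows held these motifs. Camsap1 held 1 copy of TGACG. None of the other motifs searched on both strands was in the 3 windows. These were the cyclic AMP response element (TGACGTCA), the ETS core (CCGGAAG), the NRF1 core (GCGCATGC), the YY1 motif (AAGATGG) and the AP-1 motif (TGANTCA), held by 2.33%, 11.9%, 3.60%, 6.35% and 7.03% of all windows. A match describes letters in a window and not a bound site. A transcription start site is abbreviated TSS. Of the 15 members whose peak lay no more than 1000 bp from it, 9 had a window in the table, so a motif comparison over the group is void.

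Kif2a and Klc4 each shared their start region with a gene on the other strand. In the RefSeq table the promoter window of Kif2a overlapped that of the long non-coding RNA gene 3830408C21Rik, and that of Klc4 overlapped that of Mrpl2, which encodes a protein of the mitochondrial ribosome. No peak was assigned to either neighbour in COH or in control.

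Dynein genes caught by the name pattern, which are the Dync genes, carried peaks at a higher share than kinesins, dynactins or tubulins. Among 107 protein-coding members, 9 (8.41%, 3.92 to 15.4) had a COH peak and 18 (16.8%, 10.3 to 25.3) a control peak. Over all 21896 protein-coding genes the shares were 5.38% in COH and 10.8% in control. Both lists named 6 of the members (5.61%, 2.09 to 11.8), against 3.53% of all protein-coding genes. Of the 7 dynein genes, 3 (42.9%, 9.90 to 81.6) had a COH peak and 5 (71.4%, 29.0 to 96.3) a control peak, and Dync1li1 alone had none in either list. Dynein light chains fall outside the name pattern and are not in this share. Of these, Dynll1, Dynll2, Dynlt1b, Dynlt3, Dynlrb1 and Dynlrb2 had no peak in either list. Kinesins had a peak in 1 of 43 (2.33%, 0.0589 to 12.3) in COH and 5 of 43 (11.6%, 3.89 to 25.1) in control. The alpha- and beta-tubulin genes had 0 of 16 in COH and 0 of 16 in control, with an upper limit of 20.6%. Microtubule-binding proteins had 3 of 24 (12.5%, 2.66 to 32.4) in COH and 5 of 24 (20.8%, 7.13 to 42.2) in control. The kinesin shares lie near those of all genes, and the intervals of the small families are wide. The families were looked at with these counts known and the difference between them was not tested.

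**Figure D1:**
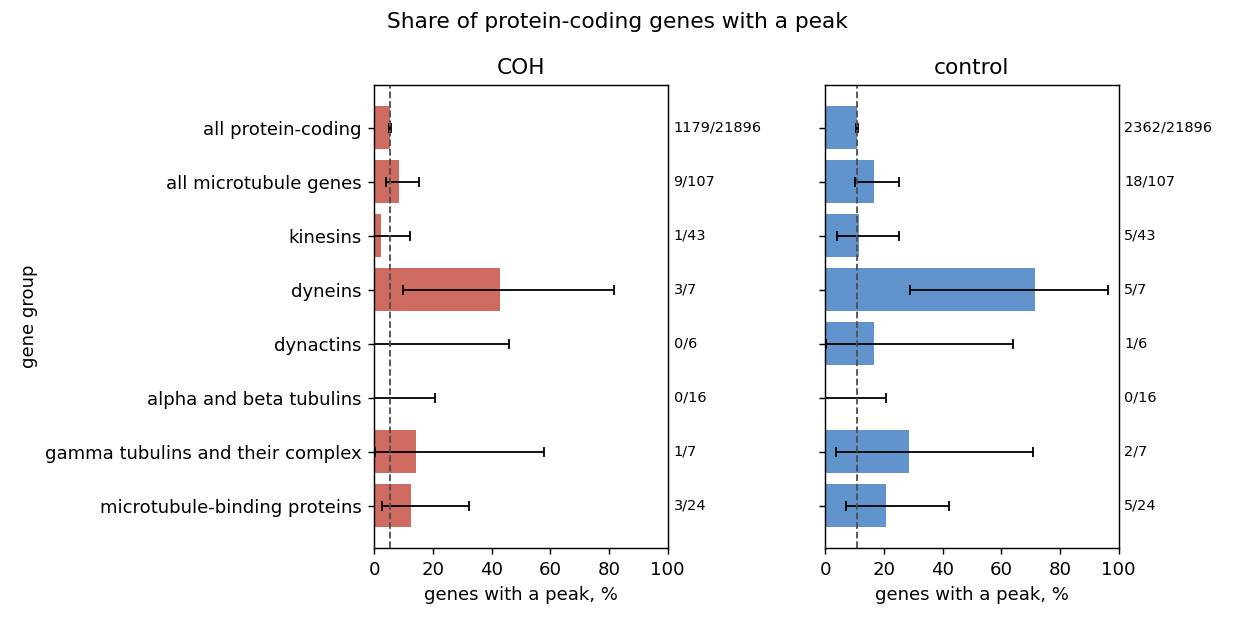
Share of protein-coding genes with at least 1 peak, in % on the horizontal axis, for the COH list (left) and the control list (right). Bars are shares with exact 95% intervals, fractions are genes with a peak over genes in the group, and the dashed line is the share over all protein-coding genes, 5.38% in COH and 10.8% in control. Dyneins, here the Dync genes alone, have the longest bar in both panels, and alpha- and beta-tubulins have none.

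Counting only peaks near gene starts lowered the dynein count. Within 1000 bp of a TSS, 1 of 7 dynein genes had a COH peak and 3 of 7 a control peak, where 3.80% and 8.37% of all protein-coding genes had one. Limited to -log10 q of 5 or more, the dynein count was 1 in COH and 2 in control. At or above the median fold it was 0 in COH and 3 in control, and with equal numbers of the strongest peaks 3 in each list. Over all members, 5 of 107 (4.67%, 1.53 to 10.6) had a COH peak within 1000 bp of a TSS and 14 of 107 (13.1%, 7.34 to 21.0) a control peak. As a share of peaks, 5 of the 10 COH peaks (50%, 18.7 to 81.3) and 14 of the 19 control peaks (73.7%, 48.8 to 90.9) lay that close, against 51.1% of all COH peaks and 61.6% of all control peaks.

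Most peaks of these genes lay below the median fold of their lists. The fold enrichment over background, as the authors' peak caller gave it, had a median of 4.73 over the 10 COH peaks and 4.76 over the 19 control peaks, against 5.45 and 5.24 over all peaks of the lists. In COH 8 of the 10 peaks lay below the median fold of the list, and in control 12 of 19 did. By the definition of a median, 855 of all 1711 COH peaks and 1537 of all 3078 control peaks did so. The difference was not tested. The pileup, which is the authors' height of the peak in stacked fragments, was 10 to 32 in COH with a median of 15, and 9 to 32 in control with a median of 16. Over all peaks the median pileup was 16 in COH and 17 in control. None of these peaks lay in a cluster of at least 5 peaks within 100 kb. Clustered peaks were rare in both lists, 53 of 1711 in COH and 59 of 3078 in control. All fold, pileup and -log10 q values are the authors' own and describe peaks within a list.

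**Figure D2:**
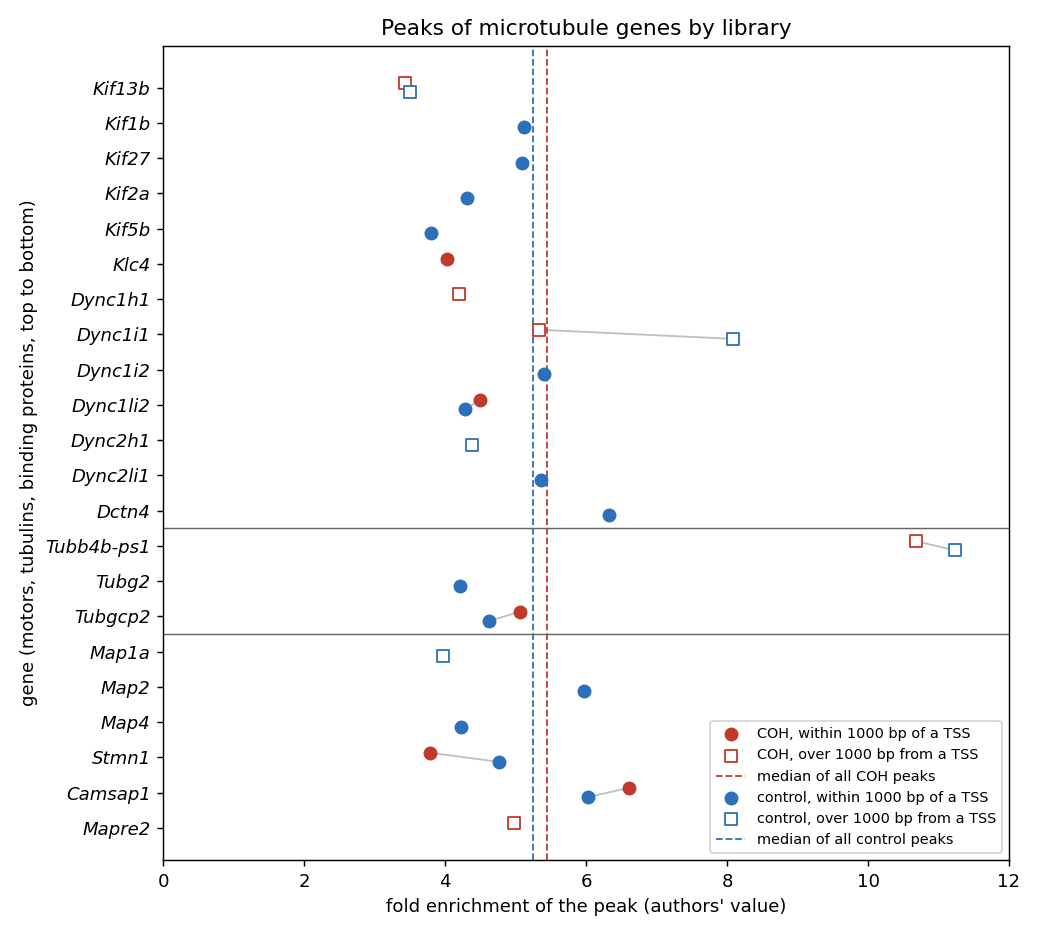
Fold enrichment of each peak on the horizontal axis, by gene, with COH in red and control in blue; filled circles lie within 1000 bp of a TSS, open squares farther away, and grey lines join the peaks of a gene found in both lists. Dashed lines are the medians of all peaks, 5.45 in COH and 5.24 in control. Only Tubb4b-ps1 in both lists, Camsap1 in both, and Dync1i1, Dync1i2, Dync2li1, Dctn4 and Map2 in control lie above the median of their list.

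Kif2a had 0 peaks in COH and 1 in control. The control count was also 0 with only peaks at or above the median fold, with only those of -log10 q of 5 or more, and with equal numbers of the strongest peaks. The control peak, at chr13:107158839-107159231 in the coordinates of the lists, had a pileup of 14, 4.31-fold enrichment and a -log10 q of 3.69. Measured from the gene start that the lists give, it lay wholly upstream, from -597 to -205 bp with its summit at -514 bp. It did not reach that start. The build of the listed coordinates is unsettled, and the submitters' processing notes name mm9. For 3 of the 22 genes the lower end coordinate lay within 100 bp of that in GRCm38.p6. That end is the gene start only on the plus strand. Among members with a peak within 1000 bp of a TSS its summit was the farthest upstream. Of the 146 control peaks within 1000 bp of a TSS with the same pileup of 14, 17 had an overlapping peak in COH (11.6%, 6.93 to 18.0). The nearest peak on the side of higher coordinates was assigned to Zswim6 in both lists, 867394 bp away in COH and 867364 bp in control. On the side of lower coordinates it was assigned to Mast4 in COH, 3763084 bp away, and to Cwc27 in control, 2204922 bp away. Peaks that missed the caller's threshold are not listed, so the gene is not shown to be unbound in COH. The position of this peak relative to the printed window is not settled, since the gene start of the lists and that of RefSeq come from different annotations. The length of Kif2a in the lists minus that in RefSeq was -229 bp, and which end differs was not determined. If it is the start, the RefSeq start falls within the span of the peak.

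Near gene starts the kinesins, Kif2a included, had 0 COH peaks in 43 genes (0 to 8.22%) and control peaks in 4 of 43 (9.30%, 2.59 to 22.1). Over all protein-coding genes the shares within 1000 bp of a TSS were 3.80% in COH and 8.37% in control, and the difference was not tested. Kif1b, which carries mitochondria and precursors of synaptic vesicles, had no COH peak and a control peak with a pileup of 16 and 5.12-fold enrichment. The peak covered the start, from -447 to 177 bp, with the summit at -34 bp. Kif27, a kinesin linked to motile cilia in mice, had no COH peak and a control peak with a pileup of 14, 5.08-fold enrichment and a summit at 109 bp. Kif5b, a heavy chain of conventional kinesin, had no COH peak and in control the lowest -log10 q of the group, 2.01, with a pileup of 9 and 3.79-fold enrichment. Its peak began at 440 bp inside the gene, from the start that the lists give. Kif5b was 653 bp longer in the lists than in RefSeq, and its lower end coordinate differed by -3 bp. If its upper end is the start, the RefSeq start falls within the span of the peak. The nearest COH peaks to these 3 lay 1268501 bp from Kif1b, 42852 bp from Kif27 and 104672 bp from Kif5b.

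Klc4 encodes a light chain that links conventional kinesin to cargo, and it was the only kinesin-related gene with a COH peak near its start. The peak, at chr17:46956625-46957004, had a pileup of 15, 4.02-fold enrichment and a -log10 q of 3.24 in COH, and covered the start from -56 to 323 bp. No control peak was assigned to Klc4, and the nearest, assigned to Klhdc3, lay 34641 bp away. By fold 92.3% of the COH list ranked above it.

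Kif13b, a vesicle motor of the kinesin family, was in both lists only through a peak far from its start. The peak had a pileup of 17 and 3.43-fold enrichment in COH, and a pileup of 22 and 3.50-fold enrichment in control. It lay at -59343 bp from the Kif13b start in COH and -59534 bp in control, in an exon of Mir124a-1hg, the host transcript of a neuronal microRNA. The peaks overlapped by 342 bp. By fold it was the weakest of the group in both lists, with 98% of the COH list and 97.6% of the control list above it.

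Subunits of both cytoplasmic dyneins had peaks. Cytoplasmic dynein 1 is the retrograde motor of axons, and cytoplasmic dynein 2 carries cargo back along cilia, of which the photoreceptor outer segment is a modified form. Dync1li2, a light intermediate chain of dynein 1, was the dynein gene with peaks near its start in both retinas. Its peak had a pileup of 11, 4.49-fold enrichment and a -log10 q of 3.0 in COH, and a pileup of 12, 4.28-fold enrichment and a -log10 q of 3.17 in control. The peaks, at chr8:105169198-105169649 in COH and chr8:105169243-105169661 in control, overlapped by 407 bp, and both began just inside the gene.

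Dync1i1, an intermediate chain of dynein 1 that is abundant in neurons, had a peak away from the gene in both lists, which was above the median fold in control and just below it in COH. The distal intergenic peak had a pileup of 15, 5.33-fold enrichment and a -log10 q of 5.31 in COH, and a pileup of 24, 8.08-fold enrichment and a -log10 q of 13.7 in control. The peaks lay at chr6:5704939-5705943 and chr6:5705026-5705832, with summits 9 bp apart, and the COH peak spanned the control peak. It ranked 914 of 1711 by fold in COH and 288 of 3078 in control. The ratio of the folds, COH over control, was 0.659, the lowest of the 7 pairs.

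The remaining dynein genes were each in a single list. Dync1h1, the heavy chain of dynein 1, had a COH peak with a pileup of 13 and 4.20-fold enrichment, in an exon of B930059L03Rik at -9499 bp, and no control peak. Dync1i2, the other intermediate chain, had no COH peak and a control peak with a pileup of 13 and 5.40-fold enrichment, from 101 to 473 bp inside the gene. Both dynein 2 genes with a peak, Dync2h1 and Dync2li1, had it in control alone. Dync2li1, a light intermediate chain, had a peak over its start with a pileup of 13 and 5.37-fold enrichment. Dync2h1, the heavy chain, had a peak classed as 5' UTR with a pileup of 9 and 4.38-fold enrichment, at 6917 bp from the start the lists give. Dync2h1 was 6187 bp longer in the lists than in RefSeq, and its lower end coordinate differed by -47 bp. If its upper end is the start, the peak lies within 1000 bp of the RefSeq start.

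Of the 6 dynactin genes named Dctn, Dctn4, a subunit of the pointed-end complex, had the only peak. Their shares were 0 of 6 in COH (0 to 45.9%) and 1 of 6 in control (16.7%, 0.421 to 64.1). Over all protein-coding genes the shares were 5.38% in COH and 10.8% in control. The Dctn4 peak covered the start in control with a pileup of 20, 6.32-fold enrichment and a -log10 q of 8.87. Among control peaks of this group that lay within 1000 bp of a TSS it had the highest fold. Dynactin subunits of other names were counted with the adaptors below. There Capza1 (fold 5.27) and Capzb (4.15) had control peaks near their starts, and Actr1a, Actr1b, Actr10 and Capza2 had no peak in either list.

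**Figure D3:**
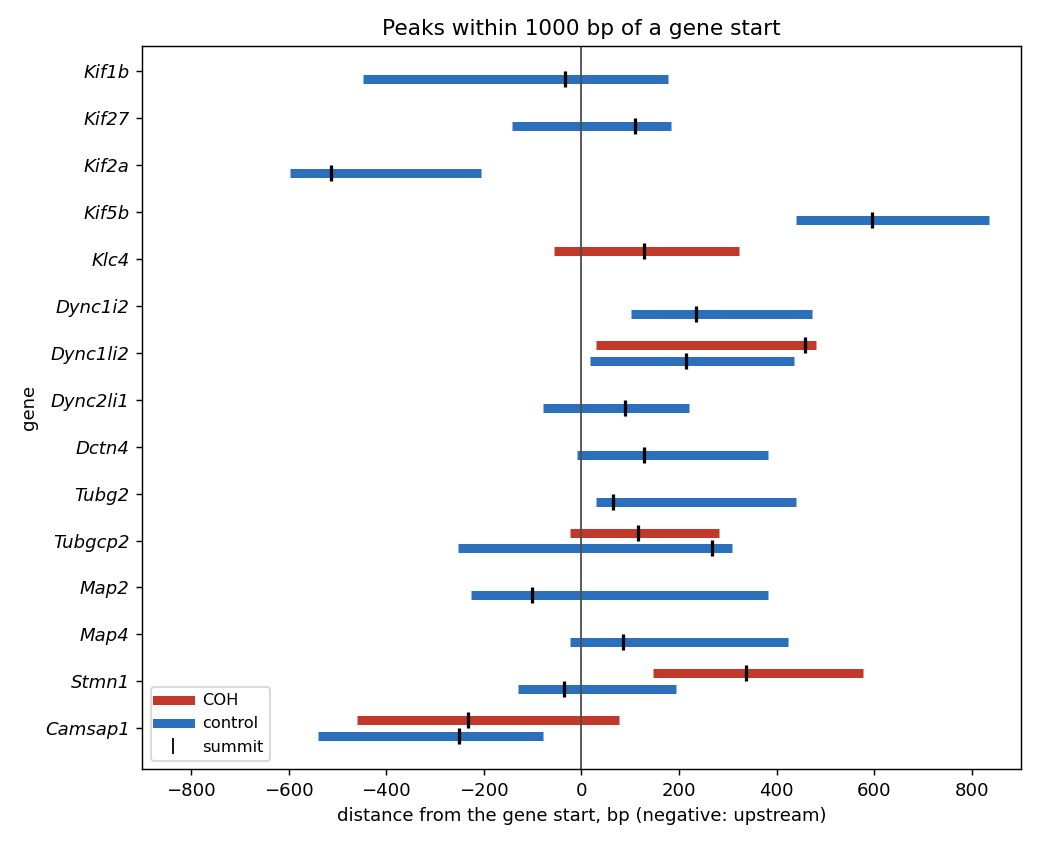
Peaks within 1000 bp of a gene start as the lists give it, drawn as bars against the distance from that start in bp. COH is in red above control in blue, and the summit is a black tick. The Kif2a peak ends at -205 bp, the Kif5b peak begins at 440 bp, and the 2 Stmn1 peaks overlap only at their edges.

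No alpha- or beta-tubulin gene had a peak. The peak assigned to the pseudogene Tubb4b-ps1 had the highest fold of the group in both lists, with a pileup of 32 and 10.7-fold enrichment in COH, and a pileup of 32 and 11.2-fold enrichment in control. It lay at chr5:7135698-7136241 in COH and chr5:7135668-7136132 in control, in an intron of Zfp804b, at -93124 and -93233 bp from the pseudogene. It is therefore a strong site in both retinas that belongs to the group by the assigned name alone.

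Microtubules grow from rings of gamma-tubulin. Of the 7 genes of gamma-tubulin and its complex, 1 (14.3%, 0.361 to 57.9) had a COH peak and 2 (28.6%, 3.67 to 71.0) a control peak, all near the start. The shares of all protein-coding genes with any peak were 5.38% in COH and 10.8% in control, and the difference was not tested. Tubgcp2, which encodes a ring component, had a pileup of 15, 5.06-fold enrichment and a -log10 q of 4.90 in COH, and a pileup of 17, 4.63-fold enrichment and a -log10 q of 4.96 in control. Its peaks, at chr7:139616301-139616605 and chr7:139616274-139616835, both covered the start and overlapped by 305 bp. Tubg2, a gamma-tubulin, had no COH peak and a control peak with a pileup of 12, 4.20-fold enrichment and a -log10 q of 3.06 that began 29 bp inside the gene. The nearest COH peak to it lay 159832 bp away.

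Camsap1, which protects microtubule minus ends, had the strongest peak of the group at a gene start in COH. The peak had a pileup of 28, 6.60-fold enrichment and a -log10 q of 12.6 in COH, and a pileup of 31, 6.02-fold enrichment and a -log10 q of 12.6 in control. The positions were chr2:25873218-25873755 in COH and chr2:25873373-25873834 in control, with summits 20 bp apart, at -232 and -252 bp. The COH peak reached across the start, and the control peak stopped at -79 bp. About 27.0% of the COH list and 29.0% of the control list had a higher fold. Camsap2 and Camsap3 had no peak.

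Stmn1, which sequesters tubulin dimers, also had a peak at its start in both lists, but the peaks shared little of their length. In COH the peak had a pileup of 10, 3.79-fold enrichment and a -log10 q of 1.96, and in control a pileup of 18, 4.76-fold enrichment and a -log10 q of 5.48. The summit lay at 337 bp inside the gene in COH and at -35 bp in control, 372 bp apart, and the overlap was 48 bp. The other stathmins had no peak.

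Map proteins had peaks in 0 of 8 genes (0 to 36.9%) in COH and 3 of 8 (37.5%, 8.52 to 75.5) in control, against 5.38% of all protein-coding genes in COH and 10.8% in control. Map2, the dendritic lattice protein of neurons, had no COH peak and a control peak at chr1:66214205-66214815 with a pileup of 19, 5.97-fold enrichment and a -log10 q of 7.90. It spanned the start from -227 to 383 bp, and the nearest COH peak lay 195050 bp away. Map4, a widely expressed lattice protein, had no COH peak and a control peak over its start with a pileup of 14 and 4.23-fold enrichment. Map1a had no COH peak and an intronic control peak with a pileup of 18 and 3.97-fold enrichment at 6553 bp from the start. Mapt, which encodes tau, had no peak in either list.

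Mapre2, a plus-end binding protein, was the binding protein with a COH peak alone. The peak had a pileup of 14, 4.97-fold enrichment and a -log10 q of 4.47 in COH and was classed as 5' UTR, but it lay 51560 bp inside the gene from the start that the lists give. No control peak lay within 799220 bp. Clasp and Dpysl genes, which bind plus ends and tubulin dimers, had no peak.

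Where both lists named a gene of the group, the 2 peaks overlapped in 7 of 7 cases. The same share over all genes named in both lists was not counted, so this is no trait of the group. Thus 7 of the 10 COH peaks had a partner in control (70%, 34.8 to 93.3), as did 61.8% of the whole COH list. Likewise 7 of the 19 control peaks had a partner in COH (36.8%, 16.3 to 61.6), as did 34.3% of the whole control list. Both shares are close to those of all peaks. The 12 control peaks of genes in control alone had folds of 3.79 to 6.32 with a median of 4.73. Those of the 7 genes in both lists had folds of 3.50 to 11.2 with a median of 4.76, so the folds of the groups overlapped. For the 12 genes in control alone, the nearest COH peak lay 42852 to 4138601 bp away. Near a TSS and below the median fold, 3 of 9 control peaks of this group overlapped a COH peak (33.3%, 7.49 to 70.1), against 22.2% (19.6 to 24.9) of all such control peaks. At or above the median fold, 1 of 5 did (20%, 0.505 to 71.6), against 41.0% (37.8 to 44.2) of all.

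In the 7 pairs the COH pileup was lower in 6 and equal in 1. The ratio of COH to control pileup had a median of 0.882 and ran from 0.556 at Stmn1 to 1.00 at Tubb4b-ps1. Over all 1058 pairs the median was 0.851 (quartiles 0.714 and 1.00), so the members sat within the spread of all shared sites. The median ratio of the folds, COH over control, was 0.979 over the members and 0.980 over all pairs. No scaling of the pileup by depth is stated, and the number of reads per library is unknown.

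**Figure D4:**
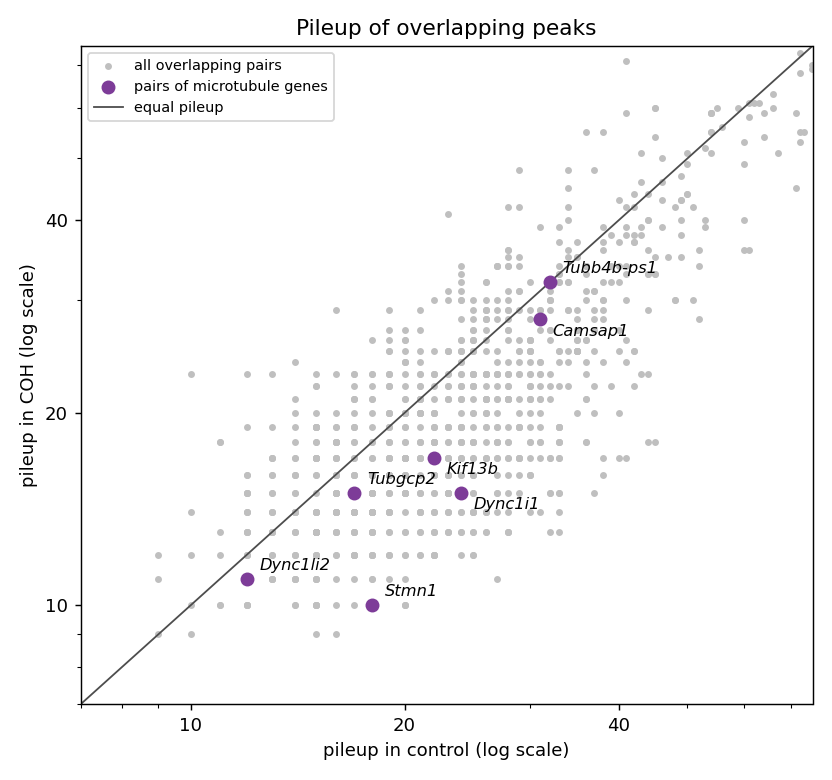
Pileup of each COH peak (vertical axis, log scale) against that of the control peak it overlaps (horizontal axis, log scale), with the 7 pairs of microtubule genes in purple over all pairs in grey; 77 pairs with a pileup above 75 lie outside the axes. The named pairs lie on or below the line of equal pileup; of all 1058 pairs, 743 lie below it and 57 on it.

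Other genes of the microtubule system, outside the name pattern, had peaks in 5 of 117 cases in COH (4.27%, 1.40 to 9.69) and 22 of 117 in control (18.8%, 12.2 to 27.1). The shares over all protein-coding genes were 5.38% in COH and 10.8% in control, and the difference was not tested. Both lists named 3 of the 117 (2.56%, 0.532 to 7.31), against 3.53% of all protein-coding genes. Those 3 were Pafah1b1, Gsk3a and Gsk3b, all with overlapping peaks at their starts. Pafah1b1 encodes LIS1, which holds dynein on the microtubule, and had 5.76-fold enrichment in COH and 5.64 in control. Gsk3a and Gsk3b are kinases that phosphorylate microtubule-binding proteins. The fold of Gsk3a was 7.36 in COH and 4.36 in control, and that of Gsk3b 4.72 in COH and 5.95 in control.

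The 5 lists that make up these genes are read against the same 5.38% in COH and 10.8% in control; no difference was tested. Adaptors of dynein and kinesin, listed with dynein and dynactin subunits of other names, had 2 of 34 (5.88%, 0.720 to 19.7) in COH and 7 of 34 (20.6%, 8.70 to 37.9) in control. Besides Pafah1b1, Hook2 had a COH peak at its start (fold 6.21), and Hook1 (6.83) and Capza1, a capping protein of actin and dynactin (5.27), had control peaks at theirs; Hook proteins join dynein to cargo. Genes of tubulin folding and modification had 0 of 26 (0 to 13.2%) in COH and 4 of 26 (15.4%, 4.36 to 34.9) in control, among them the tubulin-modifying ligases Ttll5 (5.52) and Ttll7 (4.96) and the deglutamylase Agbl5 (5.15) near their starts. Of 8 severing enzymes Katnal1, a katanin, had a COH peak (5.62) and Fignl1 a control peak (6.77), a share of 12.5% (0.316 to 52.7) in each list. Plus-end, lattice and signalling genes had 2 of 40 (5.0%, 0.611 to 16.9) in COH and 7 of 40 (17.5%, 7.34 to 32.8) in control; besides the Gsk3 kinases these included the spindle protein Tacc3 (4.82) and the plus-end protein Clip2 (4.25) in control. Of 9 genes on the path from Rac1 to microtubules, 0 had a COH peak (0 to 33.6%) and 3 a control peak (33.3%, 7.49 to 70.1), with peaks near the start of Pak1, a kinase that Rac1 activates (6.07), and Limk1, a kinase of the actin regulator cofilin (4.53).

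Across the series, the COH list was shorter than the control list, and the cell type markers are given against shares of 5.38% in COH and 10.8% in control over all protein-coding genes. All 6 ganglion cell markers, and all 7 markers of bipolar, amacrine and horizontal cells, were without a peak in both lists. Of the 4 Müller glia markers, 0 had a COH peak and 1, Glul, a control peak, at its start (25%, 0.631 to 80.6). Of 8 markers of pigment epithelium, microglia, vessels, astrocytes and oligodendrocytes, 0 had a COH peak and 3, Tyr, P2ry12 and Cldn5, a control peak (37.5%, 8.52 to 75.5). Only the Cldn5 peak lay within 1000 bp of a TSS. The Tyr peak lay 116216 bp from its start in an intron of Nox4, and the P2ry12 peak at -23416 bp in an intron of Med12l.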

How the data were processed

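Nuclei of the retina were profiled by CUT&Tag with a Rac1 antibody and 15 PCR cycles, per the labels' protocols. The submitters' processing notes name cutadapt 1.9.1, Bowtie2 and mm9, without role; the peak caller and its settings are not named there. The authors deposited 1 peak list per library. Its signal is a pileup with no stated scaling, and its fold is a ratio over background, per the file headers. The 2 deposited columns with broken headings were taken, by position and range, as -log10 p and then -log10 q. Positions, genes and annotation classes are the authors'. Read depth is unknown.

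Members were matched by symbol, and denominators are protein-coding genes of the RefSeq table of GRCm38.p6; the 22 members with a peak all matched by name. A COH and a control peak counted as partners if they shared at least 1 bp. A peak was near a TSS within 1000 bp of the authors' distance. A promoter window is the one nearest the 5' end of its gene. Shares have exact 95% intervals (scipy 1.17.1); these cover counting error only, since amplified reads are not separate molecules. With 1 library per group there is no test. Every member with a peak was named; further genes were limited to those near a TSS, at most 4 per list, in both lists first, then by fold. Promoters shown are those of Kif2a and Camsap1, and of Klc4, which was added after its values were seen. The members and lists were chosen with earlier results of these data known. On simulated lists of 1711 and 3078 peaks, 500 of 500 planted overlaps were recovered. The result of 1 list of cell type markers is not reported here. Alternatives were stronger peaks, equal list lengths, clustered peaks, other overlaps and other TSS distances.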

Additional observations from a re-analysis of the deposited data

How the results depend on the processing

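The counts depend on weak peaks. With only peaks at or above the median fold, the genes with a peak were 2 in COH, 7 in control and 2 in both, against 10, 19 and 7. Overlapping peaks were then 2 in each list, and peaks near a TSS 1 in COH and 5 in control, against 5 and 14. Limited to -log10 q of 5 or more, genes numbered 3 in COH, 8 in control and 3 in both, overlapping peaks 3 in each list, and peaks near a TSS 1 in COH and 6 in control. With equal numbers of the strongest peaks, genes numbered 10 in COH and 9 in control, and peaks near a TSS 5 in COH and 7 in control, and 3 genes were in both, with 3 overlapping peaks in each list. The Kif2a count was 0 under each of these 3 limits. Within 10 kb of a TSS, genes numbered 6 in COH and 4 in both, and within 1000 bp 5 and 4. Of 66 alternative counts, 33 stayed within 1.5 times the value reported. These 33 include all counts without mitochondrial peaks and without clustered peaks. Those counts could not change, because no peak of the group was mitochondrial or clustered, so they say nothing about stability. Removing mitochondrial peaks and counting the dyneins alone were chosen after seeing the data. Peaks below the caller's threshold are not listed and the depth is unknown, so absence from a list is no evidence of absence of signal. No paired analysis was possible because each group has 1 library and no test was made.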
